A study of Mus musculus with 6 samples.

Results

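The transcription factor genes Foxc1, Foxc2, Tfap2a, Tfap2b, Twist1, Twist2, Tcf21, Prrx1 and Zic1, which are known from the periocular mesenchyme, were followed in cultured cells of the mouse retinal pigment epithelium (RPE) and choroid. The members were given as this list of 9 genes, and each was found in the count table of 52636 genes by its mouse Ensembl identifier and had at least 1 molecule in some cell. Male C57BL/6J mice aged 12 to 16 months gave the cells. Dram2 wt/wt and Dram2 ko/ko had 3 samples each, the latter a constitutive knockout made by deleting 1 exon of Dram2 with CRISPR/Cas9. All 6 samples were RPE with choroid, dissociated and grown in RPE culture medium before single-cell RNA sequencing, so levels are those of cultured cells. The 3′ end of each RNA was read and molecules were counted by unique molecular identifiers (UMIs). A level is given in CPM, counts per 1000000 UMIs, where the UMIs of a gene are divided by all UMIs of a group of cells in 1 sample, and errors are the SD over samples, with n = 6 unless another number is given. The deposited annotation placed each of the 25428 cells in 1 of 8 cell types, and divided the 4 fibroblast types again into 9 sub-clusters. Both were made by clustering the expression data, so differences between types are given as a description with the number of samples that show them, and with no test.

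The periocular mesenchyme surrounds the developing optic cup and arises from cranial neural crest and from mesoderm. It gives rise to the stroma and endothelium of the cornea, the trabecular meshwork, the sclera, the stroma of the choroid and iris, and the pericytes of ocular vessels. Foxc1 and Foxc2 encode forkhead factors of this mesenchyme, and FOXC1 mutations cause anterior segment dysgenesis in people. Tfap2a and Tfap2b encode AP-2 factors of the neural crest, Twist1 and Twist2 basic helix-loop-helix factors of mesenchyme, Tcf21 a basic helix-loop-helix factor of fibroblast lineages, Prrx1 a paired-related homeobox factor of limb and craniofacial mesenchyme, and Zic1 a zinc finger factor of neural tissue, neural crest and periocular mesenchyme.

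The samples held 2140 to 6648 cells and 96808998 to 122746184 UMIs, with a median cell of 16453 UMIs in Dram2 ko/ko replicate 2 and of 47373 UMIs in Dram2 ko/ko replicate 1. Dram2 ko/ko replicate 3 was the only sample of batch 2, so its own deviations and those of the batch cannot be told apart. Nothing states that the samples came from separate animals or cultures, and p-values therefore measure the spread between these samples, which may be technical. Marker genes fixed for each type were summed as a check of the names. The 11 RPE markers summed to 297 to 1109 CPM in the RPE type and to at most 22.7 CPM in any sample of another type, though 7 of them stayed at or under 5 CPM in RPE, Rpe65 and Best1 among them. The 5 endothelial markers summed to 3694 to 5397 CPM in Endothelial and the 6 myeloid markers to 8499 to 17474 CPM in Myeloid. Of the 8 pericyte and smooth muscle markers, 4 were over 5 CPM in the type named Pericyte (Acta2, Cspg4, Pdgfrb and Rgs5), with a sum of 754 to 3408 CPM, and Kcnj8, Higd1b and Ndufa4l2 were at 0 there in every sample. The same list averaged 5255 to 14103 CPM in the 4 fibroblast types. The 5 Schwann cell markers summed to 779 to 2156 CPM in the type named Pericyte and to at most 10.2 CPM in any sample of another type, so it is called the Pericyte-annotated type below. The sum of 7 fibroblast markers averaged 5853 CPM there and 5208 CPM in Fibroblast. Col1a1 and Col1a2 stood at 2.59 and 5.77 times their Fibroblast level, and the other fibroblast markers at 0.0325 to 0.429 times. The sum of 5 proliferation markers averaged 1260 CPM in the Pericyte-annotated type. Over all cells Dram2 measured 33.4, 39.6 and 38.1 CPM in Dram2 wt/wt replicates 1 to 3, against 30.7, 28.3 and 30.1 CPM in replicates 1 to 3 of Dram2 ko/ko. Reads were counted at the 3′ end and not at the deleted exon, so these values were not used as a check of the genotype.

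The promoters of 4 members, 1 from each of 4 factor families, are shown because their windows together hold all 3 motifs searched for. RefSeq gave a promoter window of 300 bases, 250 before and 50 after the start, for 8 of the 9 members on GRCm38.p6. Capitals mark 3 motifs searched on both strands, the AP-2 motif GCCNNNGGC, the E-box CANNTG that basic helix-loop-helix factors bind, and the TATA motif TATAAA. The windows were chr13:31806396-31806695, strand + for Foxc1, chr12:33957421-33957720, strand + for Twist1, chr1:19211804-19212103, strand + for Tfap2b and chr9:91365719-91366018, strand - for Zic1.
Foxc1: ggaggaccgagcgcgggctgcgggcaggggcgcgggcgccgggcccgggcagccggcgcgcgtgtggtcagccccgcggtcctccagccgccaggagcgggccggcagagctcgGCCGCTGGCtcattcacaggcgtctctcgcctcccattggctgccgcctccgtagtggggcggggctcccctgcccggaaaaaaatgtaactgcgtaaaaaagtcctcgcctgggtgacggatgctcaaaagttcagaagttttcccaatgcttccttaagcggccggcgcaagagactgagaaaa
Twist1: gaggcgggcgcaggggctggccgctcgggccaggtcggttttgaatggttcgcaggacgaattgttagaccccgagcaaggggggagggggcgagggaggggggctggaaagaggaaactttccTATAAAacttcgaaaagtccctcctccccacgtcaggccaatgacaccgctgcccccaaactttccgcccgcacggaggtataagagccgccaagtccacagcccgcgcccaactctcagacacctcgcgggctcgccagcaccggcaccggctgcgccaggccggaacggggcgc
Tfap2b: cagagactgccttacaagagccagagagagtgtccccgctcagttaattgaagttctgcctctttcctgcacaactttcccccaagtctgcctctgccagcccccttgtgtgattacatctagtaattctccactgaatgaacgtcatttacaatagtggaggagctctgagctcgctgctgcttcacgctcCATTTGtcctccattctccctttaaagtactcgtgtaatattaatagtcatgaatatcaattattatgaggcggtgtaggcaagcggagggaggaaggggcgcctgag
Zic1: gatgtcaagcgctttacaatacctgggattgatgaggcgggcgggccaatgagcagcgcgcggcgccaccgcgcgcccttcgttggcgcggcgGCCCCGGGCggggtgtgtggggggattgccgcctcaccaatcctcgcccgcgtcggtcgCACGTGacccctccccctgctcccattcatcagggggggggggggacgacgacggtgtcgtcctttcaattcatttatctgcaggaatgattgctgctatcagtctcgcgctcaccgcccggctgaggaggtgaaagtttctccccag
Foxc1, Twist2 and Zic1 each held 1 AP-2 motif, which 16.6% of 32851 promoters of the same length held. An E-box was found in the windows of Tfap2b and Zic1 among the 8 members, against 72.3% of all promoters, and TATAAA in the window of Twist1, against 13.6%. The E-box of Zic1 was CACGTG, a form found in 7.15% of all promoters. The windows of Foxc1, Twist1, Twist2 and Zic1 held 64.7% to 67.3% G and C and 25 to 32 CpG dinucleotides, while those of Prrx1, Tcf21 and Tfap2b held 47.7% to 53.3% and 6 to 8. Tfap2a had 1 window with 46.3% and 11, and another with 61% and 15. The median promoter held 52.7% and 7. A match is a description of the letters and not of binding.

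On GRCm38, Foxc1 (ENSMUSG00000050295) lies at chr13:31806633-31812476 with 1 exon and Foxc2 (ENSMUSG00000046714) at chr8:121116171-121118895, also with 1 exon. Foxc2 lies within the bounds of the annotated gene Gm20388 on the same strand, and overlap with the exons of that gene was not tested. Twist1 (ENSMUSG00000035799) lies at chr12:33957671-33959829, Twist2 (ENSMUSG00000007805) at chr1:91801461-91848028, Tcf21 (ENSMUSG00000045680) at chr10:22817281-22820174, Prrx1 (ENSMUSG00000026586) at chr1:163245119-163313710, Tfap2a (ENSMUSG00000021359) at chr13:40715302-40738376, Tfap2b (ENSMUSG00000025927) at chr1:19208914-19238576 and Zic1 (ENSMUSG00000032368) at chr9:91358058-91365810. Stretches of 31 bases from the 400 bases at the end of the transcripts were looked up in all transcripts, and 5.31% in Tfap2a, 3.17% in Zic1, 1.49% in Tcf21 and none in the other members also occurred in other genes. Prrx1 and Twist2 each have a noncoding gene on the same strand within their bounds.

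**Figure D1:**
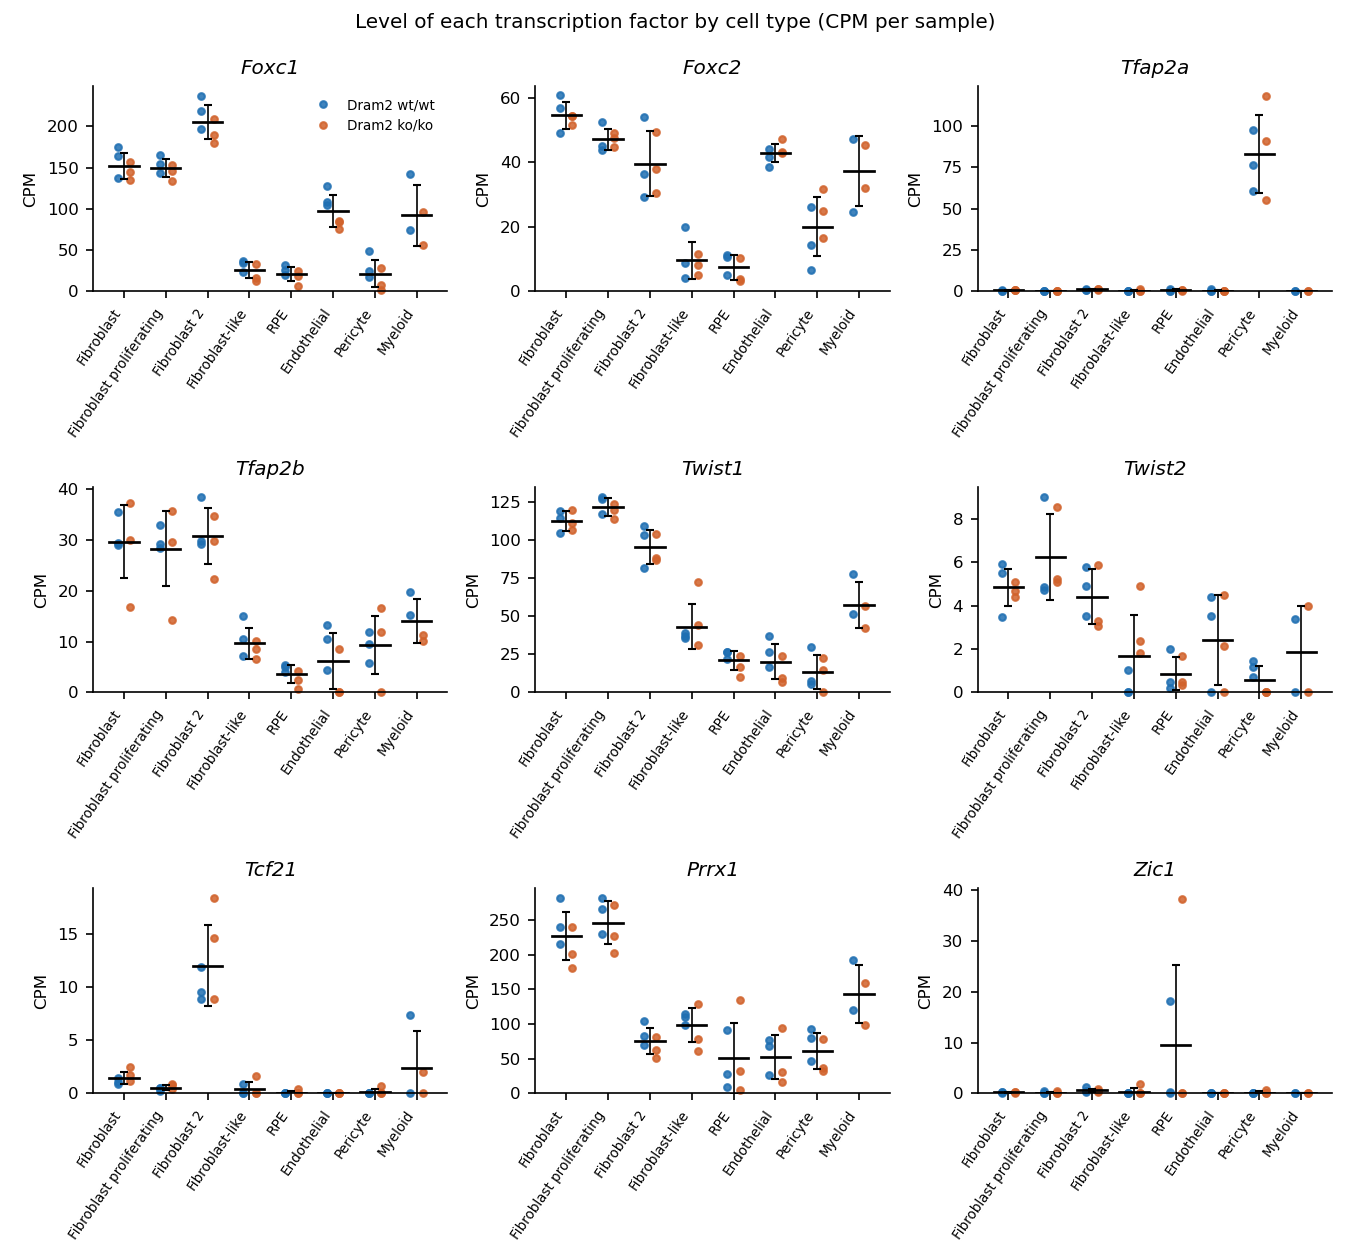
CPM of each of the 9 genes (vertical axis, linear from 0, a separate scale for each gene) in 8 cell types (horizontal axis). Points are samples, blue for Dram2 wt/wt and orange for Dram2 ko/ko, and black bars are the mean with the SD over samples. Foxc1, Foxc2, Tfap2b, Twist1 and Prrx1 were detected in every type, whereas Tfap2a reached 83.1 ± 23.6 CPM in the Pericyte-annotated type, Tcf21 12.0 ± 3.82 CPM in Fibroblast 2, and Zic1 was detected above 2 CPM in 2 samples of RPE.

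Foxc1 was highest in Fibroblast 2, at 205 ± 20.8 CPM, and was 1.35 ± 0.0422 times its level in Fibroblast, with every sample above 1. In Fibroblast 2 it measured 197, 237 and 219 CPM in Dram2 wt/wt against 189.8, 179.9 and 209 CPM in Dram2 ko/ko. In Fibroblast it measured 138, 174 and 164 CPM in Dram2 wt/wt against 145, 135 and 157 CPM in Dram2 ko/ko. Fibroblast 2 was the higher of both in 6 of 6 samples. Fibroblast proliferating, at 149 ± 11.1 CPM, did not differ from Fibroblast beyond the spread of the samples and was higher in 3 of 6. Endothelial followed at 97.6 ± 19.6 CPM and overlapped with Myeloid at 92.2 ± 36.9 CPM (n = 4), and Fibroblast-like, the Pericyte-annotated type and RPE lay lowest, at 21.4 to 26.0 CPM on average, without an order among them that all samples shared.

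Foxc2 was highest in Fibroblast, at 54.5 ± 4.04 CPM, and lower in Fibroblast proliferating in 6 of 6 samples, at 47.1 ± 3.21 CPM. It did not follow Foxc1 into Fibroblast 2, where it measured 29.1, 54.0 and 36.3 CPM in Dram2 wt/wt against 38.0, 30.4 and 49.4 CPM in Dram2 ko/ko. That is 0.719 ± 0.145 times the level in Fibroblast of the same sample, below 1 in 6 of 6 samples, so that the paralogs differed in opposite directions between these types. Endothelial, at 43.0 ± 2.86 CPM, overlapped with Fibroblast proliferating and Fibroblast 2. In RPE and Fibroblast-like, Foxc2 averaged 7.46 and 9.66 CPM.

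In Endothelial cells Foxc1 kept more of its fibroblast level than Twist1, Prrx1 and Tfap2b did. Foxc1 there measured 104, 108 and 128 CPM in Dram2 wt/wt against 84.0, 75.1 and 85.6 CPM in Dram2 ko/ko, and Foxc2 measured 38.6, 44.1 and 41.8 CPM in Dram2 wt/wt against 43.2, 42.9 and 47.3 CPM in Dram2 ko/ko. As ratios to Fibroblast in the same sample, Foxc1 stood at 0.640 ± 0.104 and Foxc2 at 0.790 ± 0.0553, whereas Twist1 stood at 0.177 ± 0.0951, Prrx1 at 0.237 ± 0.162 and Tfap2b at 0.242 ± 0.228. The lowest sample of Foxc1, at 0.544, lay above the highest of Twist1, Prrx1 and Tfap2b, at 0.313, 0.521 and 0.510. Twist2 at 0.461 ± 0.384 and Tfap2a at 0.437 ± 1.07 rest on few UMIs, and their samples overlapped with those of Foxc1 in this ratio. Tcf21 and Zic1 had no UMI in Endothelial. The 7 fibroblast markers (Mgp, Dcn, Col1a1, Col1a2, Col3a1, Pdgfra and Lum) averaged 0.0508 to 0.285 of their Fibroblast level in Endothelial, with a median of 0.192. The forkhead genes next to Foxc1 on its chromosome were also high there: Foxf2, a factor of vessel mural cells and mesenchyme, stood at 0.922 ± 0.187 of its Fibroblast level and Foxq1 at 4.67 ± 1.66. Endothelial held 288 cells, 23 to 92 a sample, and their Foxc1 level rests on 35 to 119 UMIs a sample. How far RNA of other cells contributes to these levels was not tested.

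Myeloid cells, which arise from blood-forming cells and not from the periocular mesenchyme, were taken as the type for the background. This reference is weaker for Twist1 and Twist2, which have known roles in myeloid cells. After each cell was thinned to 4000 UMIs, 29.6% of 81 Myeloid cells held a Foxc1 UMI, 24.7% a Twist1 UMI and 30.9% a Prrx1 UMI, against 43.3%, 33.4% and 51.9% of 12578 Fibroblast cells. Before thinning the shares were 50%, 50% and 60.7% in Myeloid, with a median of 16550 UMIs a cell, and 89.1%, 81.2% and 88.7% in Fibroblast, with a median of 26108. The fibroblast marker Dcn was found in 39.5% of thinned Myeloid cells and 48.4% of Fibroblast cells. In CPM, Foxc1, Foxc2, Tfap2b, Twist1 and Prrx1 stood in Myeloid at 0.505 to 0.670 of their Fibroblast level (n = 4 samples with 10 or more cells). The 7 fibroblast markers stood at 0.552 to 0.946 with a median of 0.622, so the ranges of these members and the markers overlapped. Twist2 at 0.350 ± 0.411 and Tcf21 at 2.49 ± 4.24 rest on few UMIs, and Tfap2a and Zic1 had no UMI in Myeloid. The Myeloid levels were not read as expression by myeloid cells, and their source was not tested. For Foxc1 the thinned share of 1458 RPE cells was 8.57%, and its 1.54% to 13.0% by sample lay under the 21.4% to 33.3% of Myeloid. For Twist1 it was 8.37%, under the 24.7% over all Myeloid cells, but the samples overlapped, at 1.54% to 13.7% in RPE and 0% to 37.9% in Myeloid. Dcn was found in 13.5% of thinned RPE cells, so Myeloid held more of this fibroblast marker than RPE. A lower share than in Myeloid therefore cannot decide whether RPE cells express Foxc1 or Twist1, and neither share was read as expression. For Prrx1 the share over all RPE cells was 25.4%, and the samples overlapped again, at 3.704% to 34.9% in RPE and 6.67% to 37.9% in Myeloid. In CPM the 7 fibroblast markers averaged 0.0702 to 0.240 of their Fibroblast level in RPE, with a median of 0.0906, Foxc1 0.141 ± 0.0568 and Twist1 0.188 ± 0.0606. Prrx1 averaged 0.216 ± 0.212 and reached 0.561 in 1 sample. In Endothelial, thinned shares were 28.3% for Foxc1 and 11.1% for Foxc2 of 279 cells, close to Myeloid (29.6% and 12.3%). They were 2.51% for Twist1 and 6.09% for Prrx1, under the 24.7% and 30.9% over all Myeloid cells. The samples overlapped, at 0% to 4.17% in Endothelial and 0% to 37.9% in Myeloid for Twist1, and at 2.25% to 11.8% and 6.67% to 37.9% for Prrx1. Dcn was found in 9.32% of thinned Endothelial cells, so Myeloid held more of this fibroblast marker than Endothelial too. A share at the Myeloid level is not read as expression by itself. Thinning left out 219 Dram2 wt/wt cells and 333 Dram2 ko/ko cells.

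**Figure D2:**
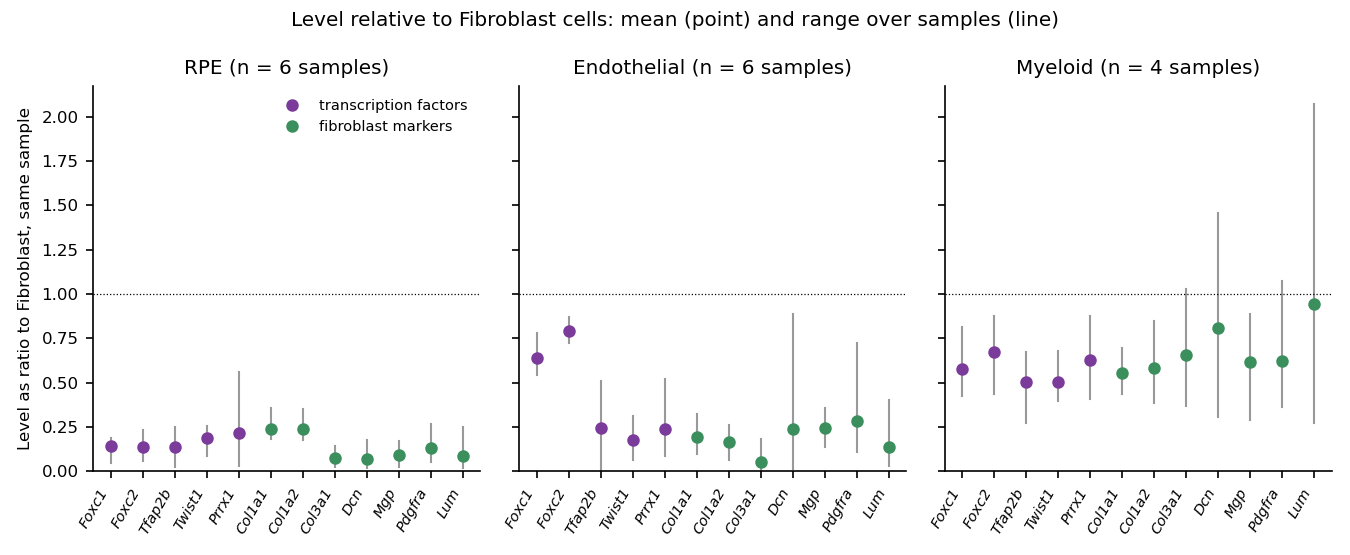
Level of 5 of the transcription factors (purple) and 7 fibroblast markers (green) in RPE, Endothelial and Myeloid cells as a ratio to the Fibroblast level of the same sample (vertical axis, linear from 0). Points are means over samples, grey lines run from the lowest to the highest sample, and the dotted line marks equal levels. In Endothelial, Foxc1 and Foxc2 (0.640 and 0.790) stand above the means of the other factors plotted. In Myeloid the means of the factors and markers plotted lie between 0.505 and 0.946.

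Twist1 was highest in Fibroblast proliferating, at 122 ± 5.80 CPM, above Fibroblast at 112 ± 6.33 CPM in 5 of 6 samples. In Fibroblast proliferating it measured 117, 128 and 127 CPM in Dram2 wt/wt against 114, 124 and 119.6 CPM in Dram2 ko/ko, and in Fibroblast 104, 115 and 119 CPM in Dram2 wt/wt against 119, 111 and 107 CPM in Dram2 ko/ko. Fibroblast 2 lay below Fibroblast in 6 of 6 samples, at 95.5 ± 11.2 CPM. RPE, Endothelial and the Pericyte-annotated type were lowest, at 13.3 to 21.0 CPM on average, and did not differ from each other beyond their spread.

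Twist2, the paralog of Twist1, had 3230 UMIs over all cells. Its highest mean, 6.24 ± 1.97 CPM in Fibroblast proliferating, came from replicate 2 of Dram2 wt/wt and replicate 3 of Dram2 ko/ko. The samples measured 4.85, 9.01 and 4.73 CPM in Dram2 wt/wt against 5.23, 5.11 and 8.54 CPM in Dram2 ko/ko. The other 4 samples lay between 4.73 and 5.23 CPM. The level in Fibroblast was 4.84 ± 0.862 CPM, and Fibroblast proliferating was the higher in 5 of 6 samples, at 0.822 to 1.68 times Fibroblast of the same sample with a median of 1.26.

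Prrx1 was highest in the dividing and main fibroblasts, at 246 ± 31.1 CPM in Fibroblast proliferating and 227 ± 35.1 CPM in Fibroblast, the former higher in 6 of 6 samples by a ratio of means of 1.09. In Fibroblast it measured 216, 240.1 and 281 CPM in Dram2 wt/wt against 201, 181 and 240.3 CPM in Dram2 ko/ko. In Fibroblast 2 it measured 69.3, 83.1 and 105 CPM in Dram2 wt/wt against 63.2, 51.7 and 81.3 CPM in Dram2 ko/ko. That is 0.329 ± 0.0297 times the level in Fibroblast, with no overlap between the types. The paralog Prrx2, also a factor of craniofacial mesenchyme, showed the same order, with a mean of 389 CPM in Fibroblast and 78.8 CPM in Fibroblast 2. In Fibroblast-like cells, by contrast, Prrx2 was at 371 CPM, near its Fibroblast level, whereas Prrx1 was at 0.432 ± 0.0762 times its Fibroblast level. Foxc1 was at 0.171 ± 0.0643 times and Twist1 at 0.384 ± 0.133 times in the same cells, whose median depth was 4825 UMIs. These ratios average over cells of unlike levels. In the Fibroblast-like cells of sub-clusters 5, 6 and 8, Foxc1 averaged 14.7, 97.2 and 14.0 CPM. Prrx1 averaged 91.4, 207 and 11.9 CPM and Twist1 47.6, 13.0 and 8.04 CPM in the same order (n = 6, 5 and 4 samples).

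Tfap2b was a fibroblast gene here, at 30.7 ± 5.48 CPM in Fibroblast 2, 29.6 ± 7.14 CPM in Fibroblast and 28.3 ± 7.37 CPM in Fibroblast proliferating, which did not differ beyond the spread of the samples. In Fibroblast it measured 28.9, 29.4 and 35.4 CPM in Dram2 wt/wt against 29.9, 16.8 and 37.2 CPM in Dram2 ko/ko. Dram2 ko/ko replicate 2 was the lowest sample in each of these 3 types, and it was also the sample with the lowest median depth per cell. Whether depth had a part in this was not tested. Outside the fibroblasts and Myeloid, Tfap2b averaged 3.65 to 9.27 CPM.

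Tfap2a, in contrast, was found in the Pericyte-annotated type. There it measured 60.9, 76.4 and 97.2 CPM in Dram2 wt/wt against 118, 55.3 and 90.8 CPM in Dram2 ko/ko. In every other type its mean was between 0 and 1.18 CPM, so the groups were far apart in 6 of 6 samples. These 308 cells, 1.21% of all, held 394 of the 786 Tfap2a UMIs (50.1%). Before thinning 60.7% of them held a Tfap2a UMI, and after thinning 25.1% of 307 cells, against 0 of 81 Myeloid cells, which by counting error alone allows a share of cells with a UMI of up to 3.704%. The same cells held Sox10 and Foxd3, factors of the neural crest and its glial derivatives, at 179 and 268 CPM, Pax3 at 21.3 CPM, and the Schwann cell gene Ngfr at 407 CPM. In Fibroblast, Tfap2a measured 0.588 ± 0.0752 CPM. Tfap2b took the opposite order, at 9.27 ± 5.73 CPM in these cells, below its Fibroblast level in every sample.

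Tcf21 was concentrated in Fibroblast 2. It measured 9.57, 11.9 and 8.90 CPM in Dram2 wt/wt against 18.4, 8.89 and 14.6 CPM in Dram2 ko/ko there. In Fibroblast it measured 1.07, 1.49 and 0.841 CPM in Dram2 wt/wt against 2.45, 1.14 and 1.71 CPM in Dram2 ko/ko. Fibroblast 2 was the higher in 6 of 6 samples, without overlap. The 2.35 CPM average in Myeloid came from 4 UMIs in 2 samples. In Endothelial no Tcf21 UMI was counted. Kcnj8, which encodes a potassium channel of pericytes and was absent from the Pericyte-annotated type, was likewise highest in Fibroblast 2. Its level there was 23.7 ± 7.28 CPM against 0.754 ± 0.287 CPM in Fibroblast. The list of 8 pericyte and smooth muscle markers that holds Kcnj8 went the other way, with a sum averaging 5255 CPM in Fibroblast 2 and 11311 CPM in Fibroblast. Fibroblast 2 held 10.0% of all UMIs and 57.1% of the 1432 Tcf21 UMIs. A share of 3.84% of 2994 thinned Fibroblast 2 cells held a Tcf21 UMI, against 0.477% of Fibroblast cells and 0 of 81 Myeloid cells. Both counting errors and free RNA limit what such low shares say, and the level in CPM carries the comparison.

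**Figure D3:**
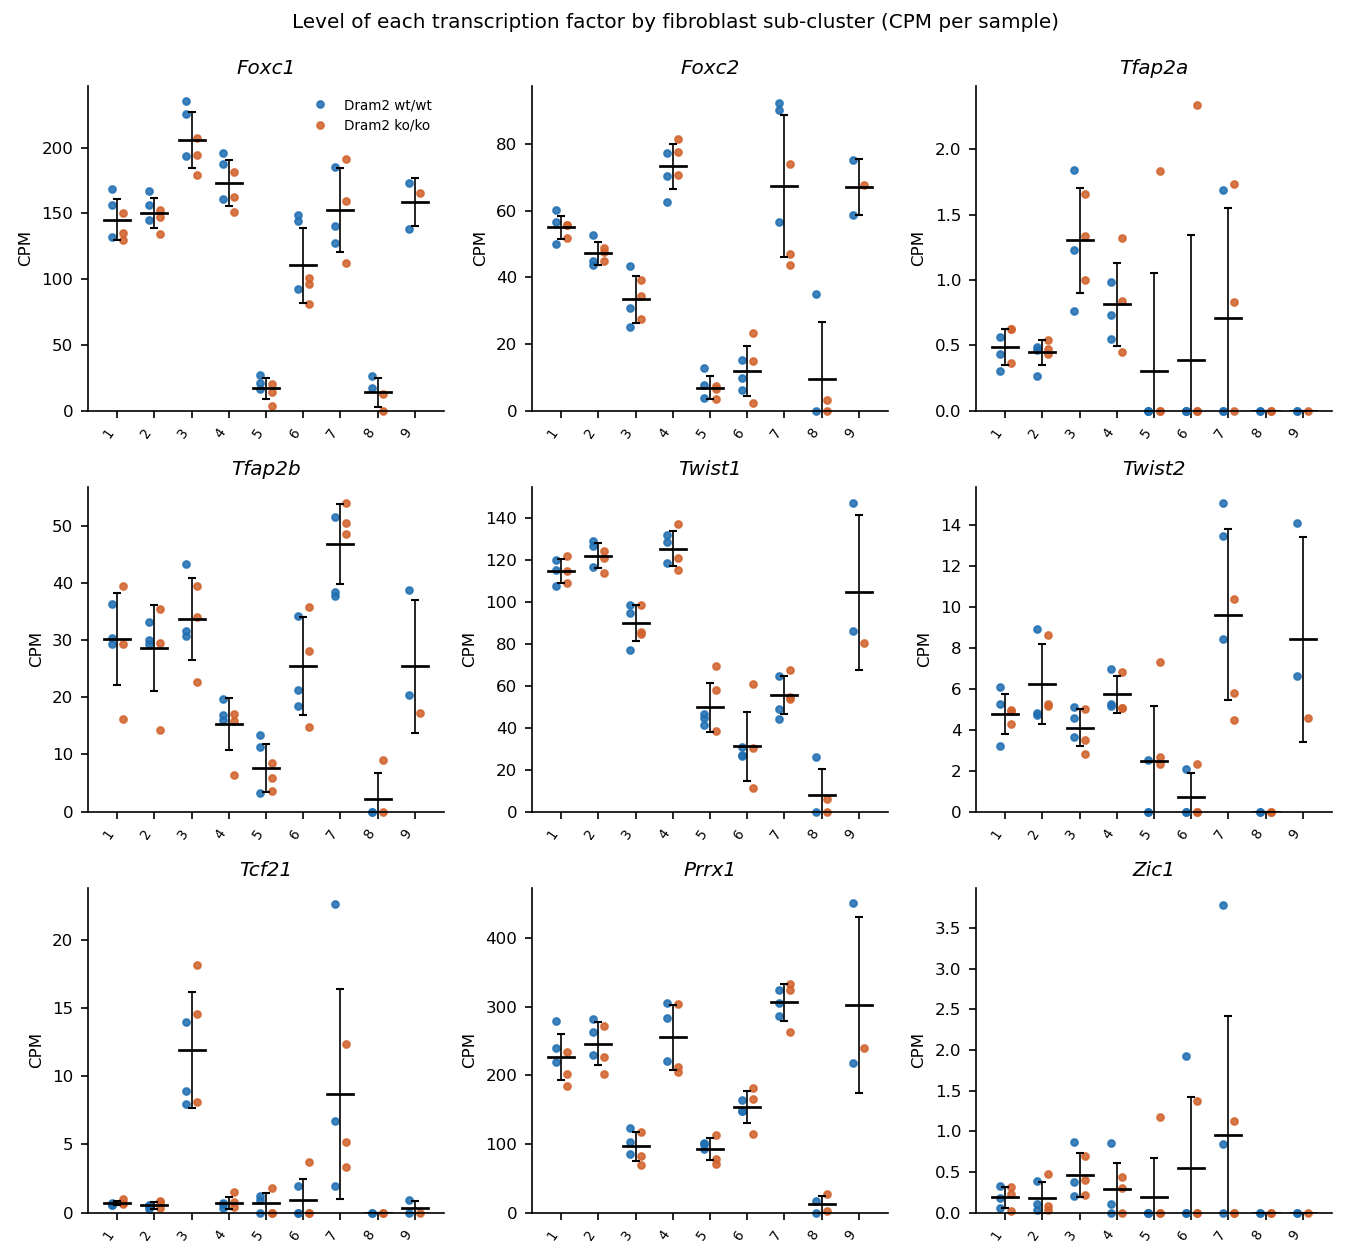
CPM of each of the 9 genes (vertical axis, linear from 0, a separate scale for each gene) in fibroblast sub-clusters 1 to 9 (horizontal axis). Points are samples with 10 or more cells of the sub-cluster, blue for Dram2 wt/wt and orange for Dram2 ko/ko, and black bars are the mean with the SD. Sub-cluster 3 had 206 CPM of Foxc1 and 11.9 CPM of Tcf21 but 96.7 CPM of Prrx1, and sub-cluster 7 had 306 CPM of Prrx1 but 55.7 CPM of Twist1.

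Among the 9 fibroblast sub-clusters, sub-cluster 1 (9965 cells) held most Fibroblast cells and is the base of the following ratios. Sub-cluster 3 (3790 cells) carried the pattern of Fibroblast 2. Its Foxc1 was 1.42 times that of sub-cluster 1 and its Tcf21 17.4 times, both higher in 6 of 6 samples, while Prrx1 was 0.427 times, Foxc2 0.608 times and Twist1 0.784 times, each lower in 6 of 6. It held 74.1% of all Tcf21 UMIs. Of its cells 2964 were annotated Fibroblast 2 and 811 Fibroblast. The 811 Fibroblast cells, 6.41% of that type, held 243 of its 504 Tcf21 UMIs (48.2%), and their Tcf21 level was 10.96 ± 5.82 CPM. In these 811 cells Foxc1 was at 203 ± 25.5 CPM and Foxc2 at 19.4 ± 2.72 CPM, whereas the Fibroblast 2 cells of the same sub-cluster had 207 ± 21.1 and 38.9 ± 10.3 CPM. Prrx1 differed in the other direction, at 157 ± 24.2 CPM in the Fibroblast cells and 73.9 ± 17.9 CPM in the Fibroblast 2 cells.

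Sub-cluster 4 (1558 cells) had more of the forkhead genes than sub-cluster 1, Foxc2 by 1.33 times and Foxc1 by 1.19 times, and less Tfap2b, by 0.508 times, each in 6 of 6 samples. Its Foxc2 measured 62.5, 77.3 and 70.4 CPM in Dram2 wt/wt against 77.5, 81.4 and 70.6 CPM in Dram2 ko/ko. Sub-cluster 7 (214 cells, 13 to 79 a sample) joined high Prrx1 with low Twist1. Prrx1 measured 286, 325 and 306 CPM in Dram2 wt/wt against 334, 263 and 325 CPM in Dram2 ko/ko, above sub-cluster 1 in 6 of 6 samples. Twist1 measured 65.0, 49.1 and 44.3 CPM in Dram2 wt/wt against 67.4, 54.8 and 53.8 CPM in Dram2 ko/ko, below sub-cluster 1 in 6 of 6 samples at a ratio of 0.485. In the same cells Tfap2b was 1.55 times and Tcf21 12.7 times the level of sub-cluster 1, higher in 6 of 6 samples, Tcf21 from 1 to 11 UMIs a sample. Sub-clusters 5 and 6 were lower in most members. Foxc1 was 0.117 times and Foxc2 0.126 times its sub-cluster 1 level in sub-cluster 5, and in sub-cluster 6 Twist1 was 0.271 times and Foxc2 0.217 times while Foxc1 kept 0.761 times. The median cell held 5856 UMIs with 2.08% mitochondrial UMIs in sub-cluster 5 and 4766 UMIs with 21.0% in sub-cluster 6, against 27032 UMIs with 2.86% in sub-cluster 1, and the part of these differences in the lower levels was not tested. Sub-cluster 8 (168 cells) held at most 4 UMIs of any member in a sample, and its median cell had 91.1% mitochondrial UMIs. Sub-cluster 9 (93 cells) had 10 or more cells in 3 samples only and is given as values in the plot of sub-clusters.

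Zic1 was at or under 1.83 CPM in every sample of every type except RPE. In RPE it measured 0, 18.2 and 0.217 CPM in Dram2 wt/wt against 0, 0 and 38.2 CPM in Dram2 ko/ko. Replicate 2 of Dram2 wt/wt and replicate 3 of Dram2 ko/ko stood apart, 1 of each genotype and 1 of each batch, and the other 4 samples held 1 Zic1 UMI together. RPE cells held 843 of the 990 Zic1 UMIs (85.2%). Those 2 samples also held 1114 of the 1492 RPE cells (74.7%). In Dram2 wt/wt replicate 2, 58 of 539 RPE cells (10.8%) held a Zic1 UMI, and in Dram2 ko/ko replicate 3, 174 of 575 (30.3%). No Zic1 UMI was counted among the 56 RPE cells of Dram2 wt/wt replicate 1 or the 68 and 102 of replicates 1 and 2 of Dram2 ko/ko, which allows levels of up to 1.49, 1.05 and 1.39 CPM by counting error alone. With all samples the RPE mean was 9.44 ± 15.9 CPM, and without those 2 samples 0.0544 ± 0.109 CPM (n = 4).

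The Zic1-positive cells were compared with the other RPE-annotated cells. They were chosen by their Zic1 count, so this is a description. Over all samples, of the 233 RPE cells with a Zic1 UMI 3.86% held a UMI of Otx2, a factor that RPE cells need, against 57.5% of the other RPE cells, at median depths of 28323 and 21338 UMIs. Within Dram2 wt/wt replicate 2 the shares were 3.45% of 58 cells with Zic1 and 44.3% of those without, at median depths of 24488 and 10126 UMIs. Within replicate 3 of Dram2 ko/ko they were 3.45% of 174 cells and 65.1%, at 29282 and 25667 UMIs. In Dram2 ko/ko replicate 3, Otx2 was 2.905 CPM in cells with Zic1 and 84.7 CPM in those without. In Dram2 wt/wt replicate 2 it was 8.12 and 82.8 CPM. The keratin gene Krt18 followed, at 20.9 against 336 CPM and 73.1 against 482 CPM in the same order, so the Zic1-positive cells had lower levels of these markers of the type they were placed in. Both markers nevertheless stayed above their means in every other type, which reached at most 0.501 CPM for Otx2 (Myeloid) and 6.12 CPM for Krt18 (Fibroblast-like). The fibroblast marker Dcn was at a like level in both (34.1 against 36.9 CPM and 91.6 against 93.5 CPM), and Prrx1 was lower in them (66.3 against 169 CPM and 70.2 against 94.4 CPM). Over all samples 57.5% of the Zic1-positive cells and 49.96% of the other RPE cells held a Prrx1 UMI, while the shares were 58.0% against 73.3% within replicate 3 of Dram2 ko/ko and 56.9% against 52.4% within replicate 2 of Dram2 wt/wt, at the depths given above. Other Zic genes were found in the same cells, Zic2 at 47.9 and 40.0 CPM, Zic4 at 15.1 and 16.2 CPM and Zic5 at 23.1 and 16.2 CPM in the Zic1-positive cells, and each at 2.08 CPM or less in the other RPE cells of these samples. The homeobox gene Hmx1 was at 72.4 and 46.4 CPM against 3.16 and 1.03 CPM, and Meis1 at 56.5 and 54.5 CPM against 52.9 and 24.1 CPM. Their cell type is given no new name here.

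**Figure D4:**
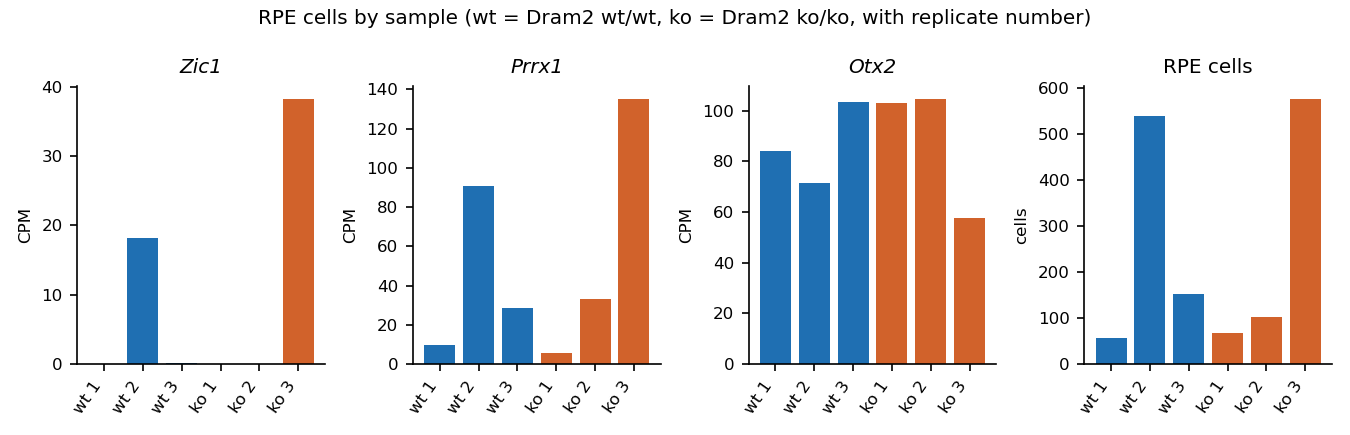
CPM of Zic1, Prrx1 and Otx2 in RPE-annotated cells and the number of these cells (bars from 0) in each sample, blue for Dram2 wt/wt and orange for Dram2 ko/ko. Replicate 2 of Dram2 wt/wt and replicate 3 of Dram2 ko/ko hold 539 and 575 cells and are the samples with Zic1 (18.2 and 38.2 CPM) and the highest Prrx1.

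Prrx1 in RPE divided the samples in the same way. It measured 9.94, 90.8 and 28.5 CPM in Dram2 wt/wt against 5.61, 33.0 and 135 CPM in Dram2 ko/ko. The mean was 50.4 ± 51.4 CPM with all samples and 19.3 ± 13.5 CPM without replicate 2 of Dram2 wt/wt and replicate 3 of Dram2 ko/ko (n = 4). In these 2 samples Otx2 in RPE was 71.6 and 57.5 CPM, below the other 4 at 84.0 to 104 CPM, and Krt18 was 420.2 and 231 CPM, below the other 4 at 739 to 976 CPM. The Zic1-positive cells of these 2 samples had lower Prrx1 than the other RPE cells, as given above. Their part in the Prrx1 level was not tested. Twist2 in RPE divided the samples in this way too. It measured 0.497, 2.01 and 0.217 CPM in Dram2 wt/wt against 0.351, 0.464 and 1.69 CPM in Dram2 ko/ko, from 23 and 28 UMIs in those 2 samples and 1 UMI in each of the other 4. For Foxc1, Foxc2, Twist1, Tfap2a and Tfap2b in RPE, these 2 samples lay within the range of the other 4 or overlapped with it.

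Detection of pairs of members in the same Fibroblast cell was close to the product of their single shares. After thinning, 7.08% of Fibroblast cells held both Foxc1 and Foxc2 against a product of the single shares of 7.48%. Foxc1 and Twist1 were held by 14.4% against 14.5%, and Foxc1 and Prrx1 by 23.0% against 22.5%. Twist1 and Prrx1 were held by 18.3% against 17.4%. At 4000 UMIs a cell these factors gave mostly 0 or 1 UMI, so the values describe detection.

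Other regulators of periocular mesenchyme and cranial neural crest were taken from a list of 26 genes, of which 23 reached 5 CPM in at least 1 type. Of these 23, 11 were highest in Fibroblast 2, the type of Foxc1 and Tcf21, 4 in RPE, 3 in the Pericyte-annotated type, 2 each in Endothelial and Fibroblast, and 1 in Fibroblast proliferating. Among those with the highest mean over types were Nr2f2, an orphan nuclear receptor, at 257 CPM in Fibroblast 2 and 152 CPM in Fibroblast, Ets1, highest in Endothelial at 226 CPM, and Ebf1, at 163 CPM in Fibroblast 2 and 97.3 CPM in Endothelial. Of 11 paralogs of the members, Prrx2 alone reached 5 CPM in a type. Of 39 Hox genes, which mark mesenchyme caudal to the Hox-negative cranial crest, 1 reached 5 CPM. That gene, Hoxc13, was named after its value was seen, and its mean was 25.9 CPM in Fibroblast 2.

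All 4 regulators of epithelial-mesenchymal transition reached 5 CPM, Snai1 and Snai2 highest in Fibroblast proliferating (55.1 and 48.5 CPM), the type with the highest Twist1, Zeb1 in Endothelial (79.7 CPM) and Zeb2 in the Pericyte-annotated type (218 CPM). Of 18 genes of the retinoic acid pathway, which patterns the periocular mesenchyme, 15 reached 5 CPM, 5 of them highest in Fibroblast 2 and 5 in the Pericyte-annotated type. Among them the synthesis enzyme Aldh1a2 was highest in Fibroblast proliferating at 90.7 CPM, the retinol dehydrogenase Rdh10 in Fibroblast 2 at 106 CPM, and the receptor Rara in Fibroblast 2 at 47.4 CPM. Of 7 genomic neighbours of the members, 5 reached 5 CPM, namely Foxf2, Foxq1, Foxf1, Foxl1 and Hdac9. Foxf2 and Foxf1 were highest in Fibroblast 2, at 92.9 and 14.7 CPM.

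The genes with the most similar pattern to each member were taken by Pearson's r of log2(CPM + 1) over the 46 sums of a sample and type, among 13054 genes that reached 5 CPM in a type. The sums of 1 sample share a library, and those of 1 type share its cells, so r is given as a description. Most like Foxc1 were Ptgs2, which encodes a prostaglandin synthase (r = 0.957), and Foxf2 (0.945). Most like Foxc2 were Vcam1 (0.877), Plod2 (0.870) and Ece1 (0.863). Most like Twist1 were the elastic fibre gene Fbln5 (0.954) and Ptges (0.921), and like Tfap2b were Rem1 (0.882) and Tbx18 (0.879). Prrx1 was nearest to Serpinf1, which encodes pigment epithelium-derived factor (0.907), Cyp1b1 (0.872) and Antxr1 (0.849). Tfap2a was nearest to Kcna1 (0.980) and Ngfr (0.975), Tcf21 to Abcc9, which encodes a subunit of a potassium channel (0.889), Tnfsf11 (0.884) and Alpl (0.872), Twist2 to Fam110c (0.785), Pla1a (0.782) and Ntrk3 (0.765), and Zic1 to Hmx1 (0.964), 1600027J07Rik (0.949) and Sfrp2 (0.901). Between members, r was highest for Twist1 with Tfap2b (0.835), and Foxc1 with Foxc2 reached 0.776.

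The effect of Dram2 loss on the members was tested between genotypes with voom-limma on sums per sample, with the Benjamini-Hochberg method over all genes tested, and calls were made at an adjusted p under 0.05. Over all cells and the cell types, 56 pairs of a member and a group of cells passed the filter on low counts, and over the sub-clusters 43. None of these 99 pairs was called, and 7 had an unadjusted p under 0.05, 5 lower and 2 higher in Dram2 ko/ko. The edgeR quasi-likelihood test and DESeq2 called none either. The lowest adjusted p among the 99 was 0.597. In all cells 0 of 9 members were called, where 0% of 22580 genes were called and 1583 had an unadjusted p under 0.05. Of the 9 members, 3 were higher and 6 lower in Dram2 ko/ko, with a median log2 fold change of −0.042, against 0.0046 over all genes tested.

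Within cell types the number of members tested and the share of all genes called were 9 members and 0.00503% in Fibroblast, 8 members and 0.624% in Fibroblast proliferating, 8 members and 0.222% in Fibroblast 2, 4 members and 0% in Fibroblast-like, and 5 members and 0% in RPE. They were 4 members and 0% in Endothelial, 5 members and 0.0118% in the Pericyte-annotated type, and 4 members and 0.0296% in Myeloid, where 2 samples stood against 2. Within sub-clusters they were 9 members and 0.32% in sub-cluster 1, 8 and 0.55% in sub-cluster 2, 8 and 0.00634% in sub-cluster 3, 6 and 0.722% in sub-cluster 4, 3 and 0% in sub-cluster 5, 4 and 0% in sub-cluster 6, and 5 and 0.402% in sub-cluster 7. No member passed the filter in sub-cluster 8, and sub-cluster 9 had too few cells to test. With so few genes called in each group of cells, 0 members called is near the background.

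Tcf21 had the largest estimate over all cells. It measured 1.94, 1.64 and 1.12 CPM in Dram2 wt/wt against 4.30, 1.93 and 2.30 CPM in Dram2 ko/ko. Dram2 ko/ko replicate 1 was the highest sample and the genotypes overlapped. The log2 fold change was 0.81 (SE 0.32), with an unadjusted p of 0.0321 and an adjusted p of 0.597 by voom-limma. Within Fibroblast 2, where Tcf21 was highest, the estimate was 0.42 (SE 0.26) with an adjusted p of 0.887. It was 0.61 (SE 0.31) in Fibroblast and 0.66 (SE 0.42) in Fibroblast proliferating, with adjusted p of 0.822 and 0.972, and 0.24 (SE 0.25) to 0.60 (SE 0.44) in the 3 sub-clusters where it was tested. Without Dram2 ko/ko replicate 1 the estimates fell to 0.48 over all cells and 0.17 in Fibroblast 2, and without Dram2 ko/ko replicate 2 they were 1.02 and 0.74, the extremes of leaving out 1 sample. Fibroblast 2 cells made up 17.5% of the cells of Dram2 ko/ko replicate 1 and 7.41% to 15.1% of those of the other samples. In the sums over all cells alone, a larger share of such cells cannot be told apart from more RNA per cell, and the estimates within types are those given above.

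Foxc1 in Endothelial was the only pair with an unadjusted p under 0.05 whose genotypes did not overlap. All 3 Dram2 wt/wt samples lay above all 3 Dram2 ko/ko samples. In this type 0% of the 6682 genes tested were called. Genotypes did not overlap for 10.5% of them, and 350 had an unadjusted p under 0.05 by voom-limma. The share of genes with both was not counted. The members tested there were 4, and this 1 pair was not read as a result about them. The log2 fold change was -0.44 (SE 0.20), with an unadjusted p of 0.0454 and an adjusted p of 0.942 by voom-limma. In Fibroblast, Foxc1 differed by -0.12 (SE 0.10) with an adjusted p of 0.934, and in Fibroblast 2 by -0.16 (SE 0.10) with an adjusted p of 0.887. The remaining pairs with an unadjusted p under 0.05 were Foxc1 in Fibroblast-like at -0.75 (SE 0.32), Tfap2b in RPE at -1.12 (SE 0.42), Twist1 in RPE at -0.62 (SE 0.26), Foxc2 in the Pericyte-annotated type at 1.13 (SE 0.47) and Foxc2 in sub-cluster 7 at -0.56 (SE 0.25). Their adjusted p by voom-limma lay between 0.639 and 1.00. Tfap2a in Fibroblast did not overlap between genotypes either, with averages of 0.535 CPM for Dram2 wt/wt against 0.641 CPM for Dram2 ko/ko, with an adjusted p of 0.934. In Fibroblast 11.6% of the genes tested did not overlap between genotypes, and 1 of the 9 members is near that background.

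**Figure D5:**
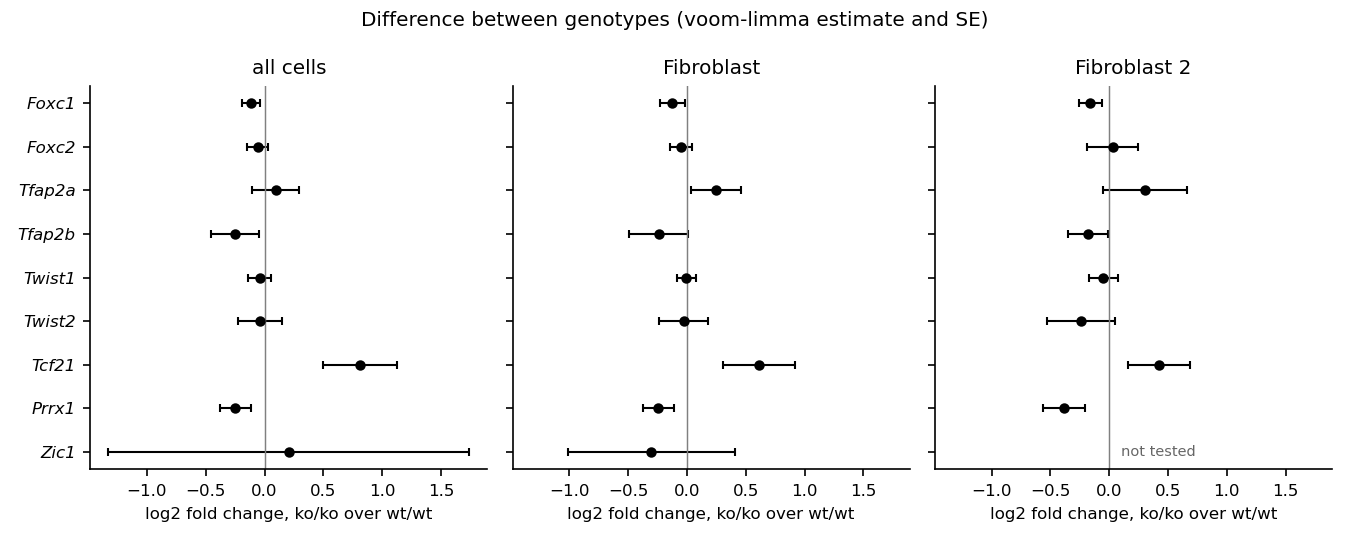
Log2 fold change of each of the 9 genes, Dram2 ko/ko over Dram2 wt/wt (horizontal axis), in all cells, Fibroblast and Fibroblast 2, as the voom-limma estimate with its SE, except Zic1 in Fibroblast 2, which was not tested. No member was called in any panel, Tcf21 had the largest estimate over all cells (0.81) and Zic1 the widest error.

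Prrx1 in Fibroblast differed between genotypes by -0.24 (SE 0.13) and Twist1 by -0.0047 (SE 0.083) on the log2 scale, with adjusted p of 0.859 and 0.995 by voom-limma. For Foxc2 and Tfap2b in Fibroblast the values were -0.051 (SE 0.091) and -0.24 (SE 0.25), with adjusted p of 0.952 and 0.934. Tfap2a in the Pericyte-annotated type differed by 0.021 (SE 0.29) with an adjusted p of 0.995. Zic1 was tested over all cells, at 0.21 (SE 1.53), in Fibroblast, at -0.30 (SE 0.71), and in sub-cluster 1, at -0.20 (SE 0.85), and did not pass the filter in RPE. An adjusted p over the threshold does not show that the genotypes were alike, and the SE gives the precision of each estimate. Of the other regulators, paralogs, neighbours, epithelial-mesenchymal transition, retinoic acid and Hox genes of the lists, 363 pairs of a gene and a group of cells were tested over all cells and the cell types. Voom-limma, edgeR and DESeq2 each called 0, and 20 pairs had an unadjusted p under 0.05 by voom-limma.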

How the data were processed

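Single-cell RNA was measured in 6 samples of cultured mouse RPE and choroid cells, 3 Dram2 wt/wt and 3 Dram2 ko/ko. The authors made 3′ libraries with molecular identifiers, aligned them to GRCm38 and counted UMIs with Cell Ranger (version 3.1.0 per the submitters' processing notes), and deposited 1 table of whole, unnormalized UMI counts per gene and cell with a table of genotype, batch, cell type and fibroblast sub-cluster for each cell. The annotation release used for counting is not given in the sources used here. The authors integrated the batches before clustering, and the deposited counts are not integrated. Cell types are those of the deposited annotation. The cell names hold no barcodes, so barcodes shared between libraries could not be counted.

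UMIs were summed per sample over all cells, over each cell type and over each fibroblast sub-cluster, where a sample held 10 or more cells. CPM is the summed count divided by the total of the same cells. Genotypes were compared by voom-limma (limma 3.58.1, edgeR 4.0.16 for filterByExpr and TMM size factors, R 4.3.3) wherever each genotype had 2 or more samples, with Benjamini-Hochberg adjustment over all genes tested. Shares of cells with a UMI were taken after thinning each cell to 4000 UMIs. A doublet caller (Scrublet in scanpy 1.11.5) marked 6 of 25428 cells (0.0236%), which at this size means that it had not worked, and no cell was removed for it. Alternatives were the edgeR quasi-likelihood test, DESeq2 1.42.0, other scalings, no filter on low counts, batch as a covariate, a replicate block, a cell filter (500 genes and 20% mitochondrial counts, which 469 cells or 1.84% failed), leaving out the 5% of cells with the highest doublet scores, and leaving out each sample. The test was checked on simulated data. No 2 samples agreed within sampling noise, with a chi-square per gene of 28.2 or more in every pair.

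The members and lists were chosen with earlier results of these data known. The genes named are the 9 members, up to 4 of each list with the highest mean CPM, and the 3 genes most like each member over samples and types. A few genes that this rule would name are not reported here. Sox10, Foxd3, Pax3, Kcnj8, the Zic paralogs, Hmx1 and Meis1 in RPE-annotated cells, and the genomic neighbours of lower level were named after their values were seen. Intervals and upper limits cover counting error only. Coordinates are from the GRCm38 annotation, and promoters from RefSeq (GRCm38.p6), which holds no entry used here for Foxc2.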

Additional observations from a re-analysis of the deposited data

How the results depend on the processing

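No member was called between genotypes under any alternative. The lowest adjusted p over all alternatives, by voom-limma, edgeR or DESeq2, was 0.134. Of 574 values recomputed under an alternative, 550 were classed as the same, 23 changed sign and 1 moved by more than the spread between samples. The 574 mix counts of members called, log2 fold changes between genotypes and log2 ratios of levels between types. The counts were 0 in every fit and have no direction, so the 550 do not measure how stable the estimates were. With batch as a covariate, which leaves Dram2 ko/ko replicate 3 without weight, the log2 fold change became −0.082 for Tfap2a in the Pericyte-annotated type, 0.041 for Twist1 over all cells, −0.20 for Twist2 in Fibroblast proliferating and −1.65 for Zic1 over all cells. With UMIs pooled over samples the log2 ratio of Fibroblast 2 to Fibroblast was 0.38 for Foxc1 and −0.0075 for Tfap2b. Leaving out 1 sample in turn changed the sign of small genotype estimates. Over all cells the log2 fold change ranged from −0.055 to 0.27 for Tfap2a, from −0.42 to 0.0073 for Tfap2b (both changed without Dram2 ko/ko replicate 2), from −0.10 to 0.043 for Twist1, from −0.23 to 0.10 for Twist2 and from −1.65 to 1.38 for Zic1, the lowest without Dram2 ko/ko replicate 3. It ranged from −0.12 to 0.017 for Foxc2 in Fibroblast, from −0.20 to 0.50 for Tfap2a in the Pericyte-annotated type and from −0.19 to 0.33 for Twist2 in Fibroblast proliferating. The cause was not tested. The log2 ratio of Tcf21 in Fibroblast 2 to Myeloid ranged from 1.66 to 3.03, since Myeloid held 4 Tcf21 UMIs. In the paired analysis with a replicate block 0 members were called in every group of cells, and Tcf21 over all cells stood at a log2 fold change of 0.84 (adjusted p = 0.336 by voom-limma). The numbers did not pair the samples, since samples of the same number deviated with correlations of 0.099, −0.429 and 0.0276. Low counts limit Tcf21, Twist2 and Tfap2a, and small numbers of cells limit Endothelial, Myeloid and the Pericyte-annotated type.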
